A study of Mus musculus with 24 samples.

Results

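PML bodies are nuclear domains in which many SUMO-modified proteins collect. Their scaffold PML is itself modified by SUMO, and SP100, DAXX and other residents are held there through SUMO and SUMO-binding motifs. RNF4 and RNF111 are ubiquitin ligases that read SUMO chains, RNF4 being known for the turnover of SUMO-modified PML, whereas TRIM28 uses SUMO to bring the histone methyltransferase SETDB1 to chromatin. The 9 genes described here, Pml, Sp100, Daxx, Atrx, Rnf4, Rnf111, Trim28, Setdb1 and Morc3, were taken by symbol from 26995 gene symbols in the count tables, each by whichever of its 3′UTR entries held the most reads on average in the 24 libraries. All 9 passed the filter on low counts for total reads, and 8 of the 9 passed it for labelled reads, Sp100 being the exception.

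The cells were 3T3-L1, an established mouse fibroblast line that becomes adipocyte-like after hormonal induction. Cells carried no engineered allele, were treated with DMSO or with 0.5 µM ML-792, an inhibitor of the enzyme that activates SUMO, and were harvested on day -2, day 1, day 3 and day 7 relative to induction, with 3 replicates (A, B and C) in each of the 8 conditions. All groups, DMSO included, received 100 µM 4-thiouridine for 45 min before harvest, and cells of all later days had been exposed to dexamethasone, IBMX and insulin. In the study's viability assay ML-792 was present from day -2 onward, and the methods read here give no start time for these libraries. RNA was read at its 3′ ends by SLAMseq, in which a read with at least 1 T>C conversion counts as labelled, so that each gene has a count of total reads and a count of labelled, recently made reads. Total counts per library lay between 13554718 and 27013352 (median 17428698) and labelled counts between 115709 and 820046. Values below are normalized reads, scaled to the depth and composition of the 24 libraries, given as mean ± SD over 3 libraries unless each library is named. Fold changes and adjusted p-values come from edgeR's quasi-likelihood test with Benjamini-Hochberg adjustment over 26563 entries for total reads or 10589 for labelled reads. A change over time was called at an adjusted p under 0.01, and a difference between ML-792 and DMSO, or an interaction of day and treatment, at an adjusted p under 0.1. Because these are bulk samples, fewer cells of a type and less RNA per cell cannot be told apart.

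The labels were checked against marker genes. Summed adipocyte markers went from 23659 to 24935 normalized reads on day -2 to 416483 to 547743 on day 3 in DMSO, with 10 of 10 called higher, and 9 of 10 pre-adipocyte or fibroblast markers were called lower. Macrophage markers summed to 32 to 146, endothelial markers to 0 to 20.5 and epithelial markers to 0 to 63.6 normalized reads. Muscle markers, of which Des and Acta1 passed the filter, summed to 16.5 to 545, highest on day 7 in DMSO (313 to 545, against 103 to 220 with ML-792, where Des was called lower). Compared with DMSO, ML-792 had 3 of 10 adipocyte markers higher and 1 lower on day 1, 1 higher and 4 lower on day 3, and 3 higher and 0 lower on day 7. Of 10 pre-adipocyte markers, 2 were higher and 3 lower on day 1, 6 higher and 0 lower on day 3, and 5 higher and 1 lower on day 7. The part of these markers in the members' values was not tested.

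In the DMSO time course 4 of the 9 members, Pml, Sp100, Rnf4 and Setdb1, were called in total reads in at least 1 contrast. On day 1 against day -2, 1 of 9 rose (Setdb1) and 1 fell (Sp100), where 13.7% of all entries tested were called, 5.44% higher and 8.27% lower. On day 3, 1 rose (Rnf4) and 2 fell (Pml and Sp100), against 30.5% of all entries, 13.4% higher and 17.1% lower. On day 7 none rose and 2 fell, Pml and Sp100 again, against 32.6% of all entries, 15.5% higher and 17.1% lower. Setdb1 was lower on day 3 than on day 1 (18.9% of all entries called) and lower on day 7 than on day 3 (8.77%). The median log2 fold change of the 9 was -0.21 on day 1, -0.09 on day 3 and -0.51 on day 7, beside -0.01, -0.02 and -0.06 over all entries. With ML-792, the total reads of 1 member (Setdb1) rose by day 1, where 20% of entries were called, 8.24% higher and 11.7% lower. By day 3, 2 rose (Rnf4 and Setdb1) and 1 fell (Pml), where 34.7% were called, 16.3% higher and 18.4% lower. By day 7, 1 rose (Rnf4) and 2 fell (Pml and Sp100), where 34.8% were called, 16.7% higher and 18.1% lower. Setdb1 was again lower on day 3 than on day 1 (21% of entries called), and Setdb1 and Sp100 were lower on day 7 than on day 3 (10.9%).

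Set against DMSO on the same day, ML-792 was accompanied by higher total reads of Sp100 on days 1 and 3 and of Setdb1 on day 1, and by no other call among the members. On day -2, 0 of 9 members and 0 of 26563 entries were called by edgeR, as by DESeq2, although 348 entries, none of them a member, had an unadjusted p under 0.05. On day 1, 2 of 9 members were called, both higher, where 6.55% of entries were called in either direction and 3.05% were called higher. On day 3, 1 of 9 was called, against 12.9% in either direction and 6.87% higher. On day 7 none of the 9 passed even an unadjusted p under 0.05, which 18.1% of all entries passed, while 9.6% of entries were called. The median difference of the 9 was 0.22 on day 1, 0.21 on day 3 and 0.14 on day 7 (log2), beside 0, 0.02 and 0.00 over all entries. The same DMSO libraries enter the time course and these contrasts, so the 2 sets of results are not independent.

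**Figure D1:**
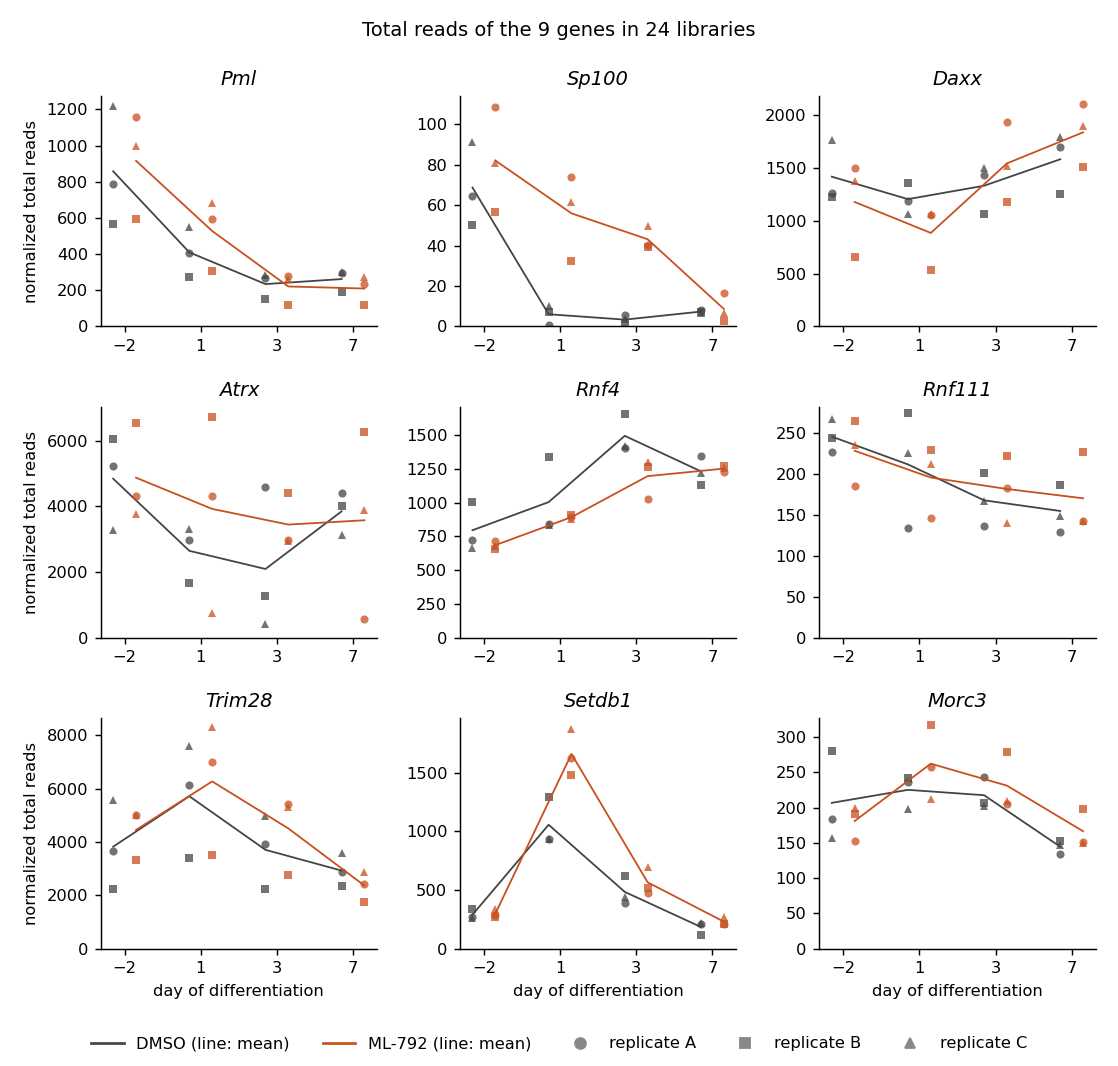
Normalized total reads of the 9 genes (vertical axis, each panel with its own scale) by day relative to induction (horizontal axis) in DMSO (grey) and ML-792 (orange). Circles, squares and triangles are replicates A, B and C and lines join the means of 3 libraries. Sp100 in DMSO drops from 68.7 on day -2 to 6.03 on day 1 while the ML-792 mean on day 1 is 56.0, and Setdb1 peaks on day 1 under both treatments.

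PML is the scaffold protein of the bodies and an interferon-inducible gene product. The Pml entry covers chr9:58217179-58220556 (mm10, minus strand), a 3378-base region made up of the last 3′UTR and, in other transcripts, 948 coding bases. In DMSO its normalized total reads in replicates A, B and C were 787, 566 and 1219 on day -2, 406, 276 and 548 on day 1, 267, 153 and 282 on day 3, and 293, 193 and 299 on day 7. All DMSO libraries of days 1, 3 and 7 were below all 3 of day -2, and B was the lowest replicate in 8 of 8 conditions. Against day -2 the log2 fold change was -1.06 on day 1 (adjusted p = 0.0241, not called), -1.87 (SE 0.33, adjusted p = 0.000255) on day 3 and -1.71 (SE 0.33, adjusted p = 0.000479) on day 7. With ML-792 the libraries read 1156, 592 and 1000 on day -2, 595, 306 and 682 on day 1, 280, 119 and 263 on day 3, and 236, 120 and 273 on day 7. This decline had log2 fold changes of -0.79 (adjusted p = 0.135, not called), -2.05 (adjusted p = 0.000824) and -2.13 (adjusted p = 0.000633). The 2 treatments overlapped on every day, and their differences on the log2 scale were 0.37 on day 1 (95% interval -0.43 to 1.16, adjusted p = 0.766) and -0.08 on day 3 (interval -0.90 to 0.74, adjusted p = 0.958). Without replicate A the DMSO adjusted p-values were 0.0101 on day 3 and 0.0123 on day 7, just past the threshold, and the ML-792 calls of days 3 and 7 were lost without A and without C.

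SP100 is a constituent of the bodies that binds SUMO and chromatin and, like PML, is interferon-inducible. Its count rests on 3 separate 3′ ends that passed the filter, and they are described apart because they do not overlap. The entry with the most reads is the last 3′UTR, 880 bases at chr1:85709119-85709998 (mm10, plus strand). The other ends are the 3′UTR of a shorter transcript, 843 bases at chr1:85682276-85683118, and that of another transcript, 114 bases at chr1:85701459-85701572. The poly(A) signals found close to the ends of the first and second are shown because they mark where an oligo(dT)-primed read would be placed; capitals are the signal.
Sp100 last 3′UTR, chr1:85709961-85709990 (+): tgttatatgcttAATAAAttcatcatttga
Sp100 shorter transcript, chr1:85683088-85683117 (+): aagccagccctaATTAAAtatttttcatta
Of the 32-base windows of the last 3′UTR, 7.54% also occur elsewhere in the genome, against 24.1% for the shorter transcript's and 0% for the 114-base end.

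At the last 3′UTR, Sp100 in DMSO read 64.6, 50.1 and 91.5 normalized reads on day -2, then 0.920, 7.29 and 9.90 on day 1, 5.47, 1.16 and 3.47 on day 3, and 7.90, 7.30 and 6.85 on day 7. No library after day -2 came near the lowest of day -2. The log2 fold change against day -2 was -3.47 (SE 0.62, adjusted p = 0.000766) on day 1, -4.29 (SE 0.68, adjusted p = 0.000105) on day 3 and -3.20 (SE 0.62, adjusted p = 0.000564) on day 7. With ML-792 the libraries read 108.7, 56.6 and 81.1 on day -2, 73.8, 32.6 and 61.5 on day 1, 40.2, 39.3 and 50.0 on day 3, and 16.7, 2.57 and 6.83 on day 7. All ML-792 libraries of days 1 and 3 stood above all DMSO libraries of the same day, whereas the treatments overlapped on days -2 and 7. Against its own day -2, ML-792 gave log2 fold changes of -0.55 on day 1 (adjusted p = 0.38, not called), -0.92 on day 3 (adjusted p = 0.105, not called) and -3.20 on day 7 (adjusted p = 0.00018), and day 7 was below day 3 by -2.27 (adjusted p = 0.00837).

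The difference between ML-792 and DMSO in Sp100 was 0.25 on the log2 scale on day -2 (95% interval -0.72 to 1.23, adjusted p = 1). It was 3.17 on day 1 (SE 0.57, interval 2.00 to 4.35, adjusted p = 0.000847) and 3.62 on day 3 (SE 0.64, interval 2.30 to 4.94, adjusted p = 0.000337). On day 7 it was 0.26 (interval -1.06 to 1.58, adjusted p = 0.896). The effect of ML-792 on Sp100 differed between days (interaction adjusted p = 0.00629), where 9.66% of all entries were called and no other member was. With the replicate letter as a block, Trim28 (adjusted p = 0.0618) and Pml (adjusted p = 0.098) were called as well. In that fit 5568 of 26563 entries were called, against 2567 without a block. The effect on day 1 exceeded that on day -2 by 2.92 (adjusted p = 0.0479), that on day 3 exceeded day -2 by 3.36 (adjusted p = 0.0149), and day 7 differed from day 3 by -3.36 (adjusted p = 0.0543). Leaving out a replicate ended some of these calls. The DMSO change on day 1 had an adjusted p of 0.0242 without A and 0.0188 without C, that on day 7 had 0.021 without C, and neither the interaction nor the ML-792 change of day 7 was called without C.

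The shorter Sp100 transcript's 3′UTR followed the same course. Its DMSO mean was 56.4 ± 15.9 on day -2, then 2.93 ± 0.98, 3.00 ± 1.19 and 1.87 ± 1.35, and its ML-792 mean was 55.9 ± 11.0, 52.7 ± 11.9, 64.8 ± 15.5 and 3.01 ± 2.77. ML-792 exceeded DMSO by 4.11 on the log2 scale on day 1 (SE 0.53, adjusted p = 1.46e-05) and by 4.37 on day 3 (SE 0.55, adjusted p = 4.89e-06), and by 0.66 on day 7 (adjusted p = 0.747, not called). The 114-base end also fell in DMSO, by log2 fold changes of -3.82 (adjusted p = 0.00133), -4.85 (adjusted p = 0.000203) and -5.78 (adjusted p = 8.12e-05) on days 1, 3 and 7. There the ML-792 libraries again stood above every DMSO library on days 1 and 3, but the differences of 1.90 (adjusted p = 0.33) and 2.70 (adjusted p = 0.132) were not called. Unlike at the other ends, the fitted difference was no smaller on day 7 (3.01, adjusted p = 0.174, not called), where the libraries overlapped with means of 6.86 ± 11.9 with ML-792 and 0.757 ± 0.655 in DMSO, and the interaction was not called (adjusted p = 0.27). Summed over the 3 ends, Sp100 in DMSO went from 172 ± 39.6 to 12.2 ± 5.19, 7.89 ± 2.70 and 9.97 ± 1.55, and with ML-792 from 173 ± 30.5 to 121 ± 29.3, 118 ± 17.3 and 18.6 ± 5.63. On day 7 the summed libraries did not overlap, at 8.34 to 11.4 in DMSO and 12.3 to 23.2 with ML-792. This sum is a description, with no test given.

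**Figure D2:**
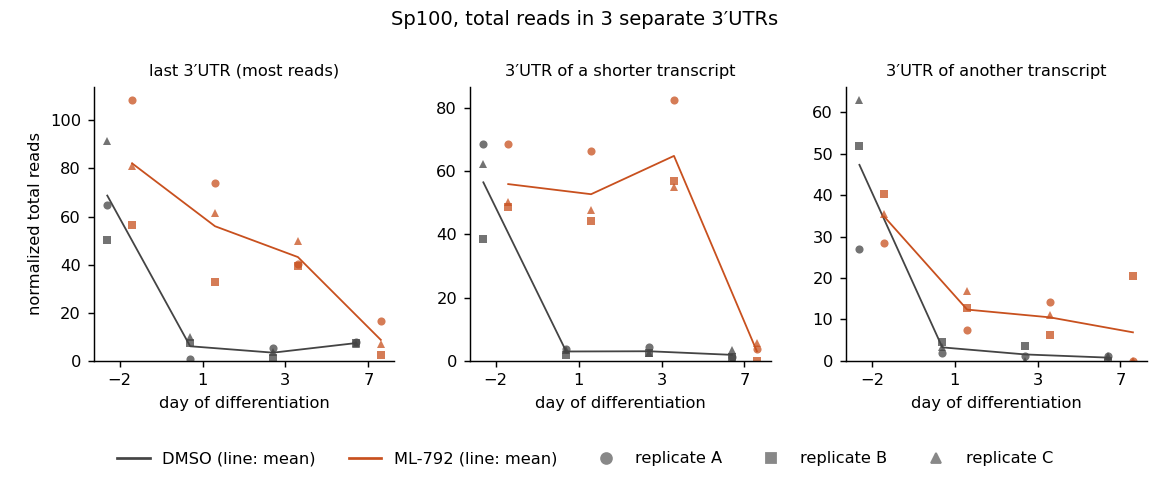
Normalized total reads (vertical axis) of the 3 Sp100 3′ ends by day relative to induction (horizontal axis), DMSO in grey and ML-792 in orange, with circles, squares and triangles for replicates A, B and C and lines through means. On day 3 the last 3′UTR averages 3.37 in DMSO and 43.1 with ML-792, the shorter transcript's averages 3.00 and 64.8, and by day 7 both treatments are low at these ends.

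Sp100 and Pml were read beside other interferon-stimulated genes, a list of 30 genes of which 29 were in the table and 27 were tested. In DMSO, 23 of the 27 fell and none rose on day 1 (median log2 fold change -3.01), 24 fell on day 3 (median -3.71, or -3.66 over the 25 with reads in every group) and 21 fell on day 7 (median -2.75). The changes called on day 1 included those of Ifit3b (-7.06), Rsad2 (-6.46) and Psmb9 (-1.20). With ML-792, 23 of 27 also fell on day 1 (median -2.50). Against DMSO on day 1, 4 of 27 were higher and none lower, the highest being Rsad2 (2.52) and the immunoproteasome subunit gene Psmb8 (1.63), and the lowest Psmb9 (1.15) and the peptide transporter gene Tap1 (0.72), and the median over the list was 0.01. On day 3, 7 were higher, among them the GTPase gene Gbp2 (2.58, adjusted p = 0.000122) and Ifit2, whose groups overlapped at means of 1.14 and 8.26 normalized reads (adjusted p = 0.0389), and 2 were lower, among them the transcription factor gene Irf1 (-0.85, adjusted p = 0.00861). The median on day 3 was 0.86, or 0.67 over the 25 genes with reads in every group. On day 7, 8 were higher and none lower, from Psmb9 (2.40, adjusted p = 6.2e-05) and the deubiquitinase gene Usp18 (1.86, adjusted p = 0.00148) to Parp9 (1.03) and Dtx3l (0.59), with a median of 0.59. The interaction was called for 9 of 27, where 9.66% of all entries were called. Over all entries, 8.27, 17.1 and 17.1% were called lower in DMSO on days 1, 3 and 7, and 11.7% with ML-792 on day 1. Against DMSO, 3.05 and 6.87% of all entries were higher with ML-792 on days 1 and 3, and 9.6% differed in either direction on day 7. Sp100, at 3.17 and 3.62, lay above the list's median on days 1 and 3, while Pml, at 0.37 and -0.08, did not pass the test on either day.

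**Figure D3:**
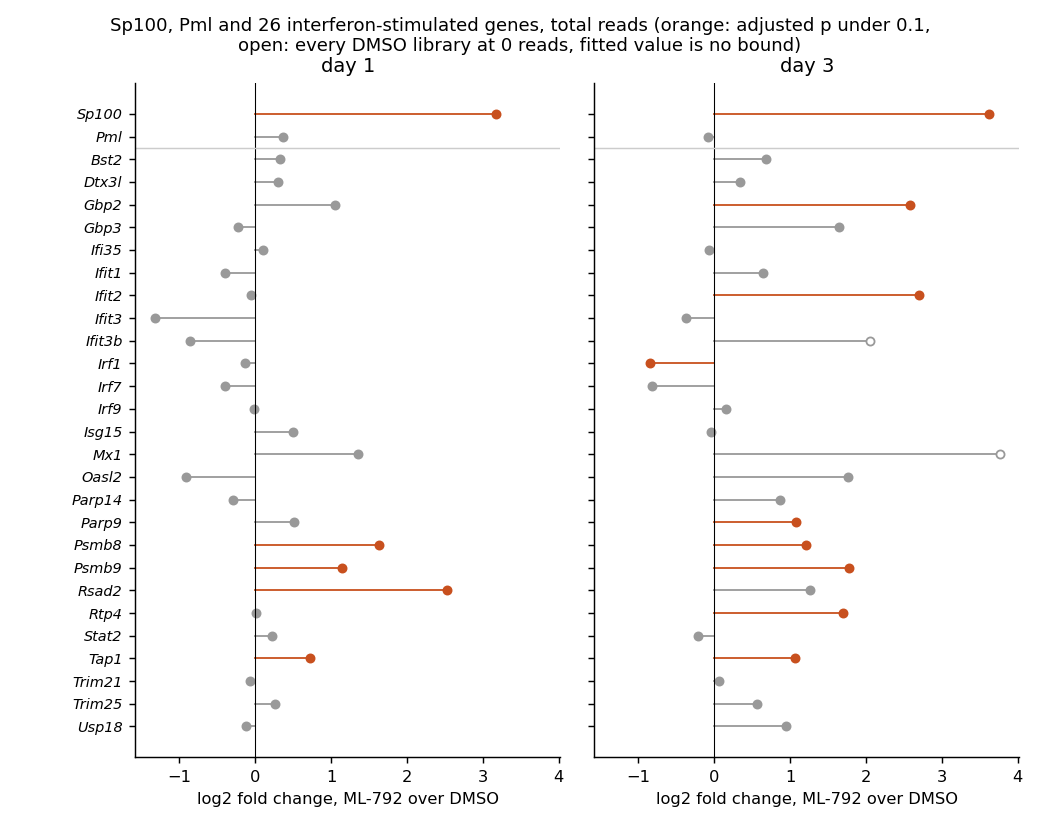
Log2 fold change of ML-792 against DMSO (horizontal axis) on day 1 and day 3 for Sp100, Pml and 26 interferon-stimulated genes (rows). Filled orange points passed an adjusted p under 0.1, and open points mark Ifit3b and Mx1 on day 3, where every DMSO library had 0 reads and the fitted value is no bound. Sp100 is called at 3.17 and 3.62, whereas the list's median is 0.01 on day 1 and 0.86 on day 3.

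The promoters of these genes (250 bases before to 50 bases after the start, RefSeq, GRCm38.p6) were searched on both strands for a core of the interferon-stimulated response element, GAAANNGAA, and for the core of the gamma-activated site, TTCNNNGAA. Among 15 promoters of the 9 members, 1 held the first motif (Rnf111, at -188) and 0 held the second, whereas 8.56% and 8.3% of 32851 promoters held them. Among 27 promoters of 23 interferon-stimulated genes, 12 (44.4%) and 6 (22.2%) held them. Neither of the 2 Sp100 promoters nor the Pml promoter held either string of letters in this window.

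DAXX and ATRX together deposit the histone variant H3.3 at heterochromatin, and DAXX is held in PML bodies through SUMO. The Daxx 3′UTR is 188 bases at chr17:33915403-33915590 (plus strand). Its total reads ranged from 532 to 2103 over the 24 libraries, with DMSO means of 1417 ± 300, 1205 ± 147, 1332 ± 238 and 1582 ± 286 on days -2, 1, 3 and 7 and ML-792 means of 1178 ± 453, 885 ± 306, 1543 ± 377 and 1837 ± 302. No Daxx contrast of total reads was called. ML-792 differed from DMSO by -0.44 on day 1 (95% interval -1.02 to 0.13, adjusted p = 0.516), and replicate B was the lowest in 7 of 8 conditions.

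For Atrx the entry with the most reads is not a terminal 3′UTR. It lies at chrX:105874560-105877573 (minus strand), 3014 bases of an internal coding exon. The entry is listed under a non-coding transcript, of which it is an internal exon too. It had a mean of 3715 total reads per library, and no poly(A) signal was found at its end. The terminal 3′UTR at chrX:105797615-105800174 had a mean of 710. The stretch of 20 bases richest in A within the exon (15 A, capitals) is shown beside the end of the 3′UTR (poly(A) signal in capitals), because the libraries were primed with oligo(dT).
Atrx exon, chrX:105876935-105876964 (-): tgtacACAAAGAAAAAAATACCAAAgacct
Atrx 3′UTR, chrX:105797621-105797650 (-): agttgaaactttATTAAAtgacataagtga
Whether exon reads came from this stretch was not tested. Both entries moved together (Pearson r = 0.9683 over 24 libraries, which share depth and gene, given as a description), with 3.709 to 7.565 times as many normalized reads in the exon.

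Atrx total reads differed widely between replicates. In DMSO the exon read 5221, 6044 and 3265 on day -2, 2972, 1663 and 3299 on day 1, 4591, 1266 and 415 on day 3, and 4394, 4016 and 3136 on day 7. With ML-792, the libraries of day 1 read 4307, 6710 and 750 and those of day 7 read 568, 6256 and 3902. Replicate C was the lowest in 6 of 8 conditions, and the low libraries were low at the terminal 3′UTR too, with 88 normalized reads in C of DMSO day 3, 165 in C of ML-792 day 1 and 100 in A of ML-792 day 7. No contrast of total reads was called. The log2 fold change on day 3 in DMSO was -1.21 (adjusted p = 0.0999) and, without replicate A, -2.45 (adjusted p = 0.00421).

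The 2 SUMO-targeted ubiquitin ligases did not move alike in these counts. RNF4, which recognises poly-SUMO chains, is represented by 1 entry, the 2065-base 3′UTR at chr5:34351381-34353445 (plus strand), of whose 32-base windows 17.6% occur elsewhere. In DMSO it read 726, 1002 and 661 on day -2, 840, 1340 and 834 on day 1, 1407, 1659 and 1421 on day 3, and 1347, 1132 and 1219 on day 7. Day 3 was above day -2 by a log2 fold change of 0.91 (SE 0.21, adjusted p = 0.00269) with no overlap, a call that was lost without replicate A (adjusted p = 0.0514) or C (0.0483). Day 7 was above day -2 by 0.63 (adjusted p = 0.0244, not called). With ML-792, Rnf4 read 719, 657 and 680 on day -2, 893, 910 and 876 on day 1, 1024, 1268 and 1299 on day 3, and 1225, 1272 and 1261 on day 7. It rose by 0.80 on day 3 (adjusted p = 0.000121) and 0.87 on day 7 (adjusted p = 5.84e-05), the first of which was not called without C. On day 3 the 3 ML-792 libraries were all below the 3 DMSO libraries, by -0.32 on the log2 scale (95% interval -0.68 to 0.04, adjusted p = 0.321), which did not pass the test.

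RNF111, also called Arkadia, is a ligase known for degrading the TGF-beta pathway repressors SKI and SKIL. Its 1566-base 3′UTR at chr9:70425424-70426989 (minus strand) has copies elsewhere for 31.8% of its windows. Total reads ranged from 129 to 274, with DMSO means of 245 ± 20.0, 211 ± 71.1, 168 ± 32.4 and 155 ± 29.5 and ML-792 means of 228 ± 40.0, 195 ± 44.1, 181 ± 40.8 and 170 ± 48.8. No contrast of total reads was called, that of day 7 against day -2 in DMSO being -0.67 (adjusted p = 0.057), and replicate A was the lowest in 7 of 8 conditions.

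TRIM28 is the SUMO-dependent corepressor of KRAB zinc finger proteins, and SETDB1 is the histone H3 lysine methyltransferase that it recruits. Trim28 has a 170-base 3′UTR at chr7:13030863-13031032 (plus strand). It ranged from 1765 to 8308 normalized reads, with DMSO means of 3824 ± 1681, 5713 ± 2114, 3706 ± 1389 and 2927 ± 620 and ML-792 means of 4451 ± 977, 6269 ± 2477, 4508 ± 1503 and 2366 ± 567. No contrast of total reads was called in the main fit, which does not pair libraries by letter, and replicate B was the lowest in 8 of 8 conditions. In DMSO, replicates A, B and C went from 3672, 2224 and 5575 on day -2 to 6140, 3418 and 7581 on day 1, a rise within each letter. The change nearest the threshold was day 7 against day -2 with ML-792 at -0.91 (adjusted p = 0.0344).

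Setdb1 peaked on day 1 under both treatments. Its 548-base 3′UTR lies at chr3:95323525-95324072 (minus strand), where 75 bases overlap the 3′UTR of Cers2 on the opposite strand, a gene whose group means ran from 1814 to 3415. In DMSO, Setdb1 read 274, 335 and 260 on day -2, 939, 1293 and 937 on day 1, 393, 615 and 444 on day 3, and 213, 121 and 222 on day 7. With ML-792 it read 287, 271 and 337, then 1624, 1480 and 1876, then 478, 521 and 699, and then 211, 210 and 273. Day 1 did not overlap any other day under either treatment. The log2 fold change on day 1 was 1.87 in DMSO (SE 0.25, adjusted p = 6.22e-05) and 2.48 with ML-792 (SE 0.18, adjusted p = 3.89e-07). From day 1 to day 3 it fell by 1.13 (adjusted p = 0.00258) in DMSO and by 1.55 (adjusted p = 1.56e-05) with ML-792, and from day 3 to day 7 by 1.39 (adjusted p = 0.00136) and by 1.29 (adjusted p = 0.000235). With ML-792, day 3 was still above day -2 by 0.92 (adjusted p = 0.000688), which was not called without replicate A. In DMSO that difference was 0.74 (adjusted p = 0.0249, not called).

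On day 1 all 3 ML-792 libraries were above all 3 DMSO libraries for Setdb1, a difference of 0.65 on the log2 scale (SE 0.21, 95% interval 0.21 to 1.10, adjusted p = 0.092). This call lies near the threshold. It was lost at a threshold of 0.05, in a fit of the 6 libraries of that day alone (adjusted p = 0.132), without replicate A (0.60, adjusted p = 0.599) and without replicate C (0.49, adjusted p = 0.55), and the interaction of day and treatment was not called (adjusted p = 0.665). Markers of dividing cells moved over the same days. Of 10 such genes, 8 rose on day 1 in DMSO, their sum going from 6781 to 7690 on day -2 to 25819 to 31805 on day 1, and 10 of 10 were called lower on day 7. Against DMSO, ML-792 had 0 of the 10 called on day 1 (summed 18063 to 31290) and 5 of 10 lower on day 3. The part of dividing cells in the Setdb1 values was not tested.

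**Figure D4:**
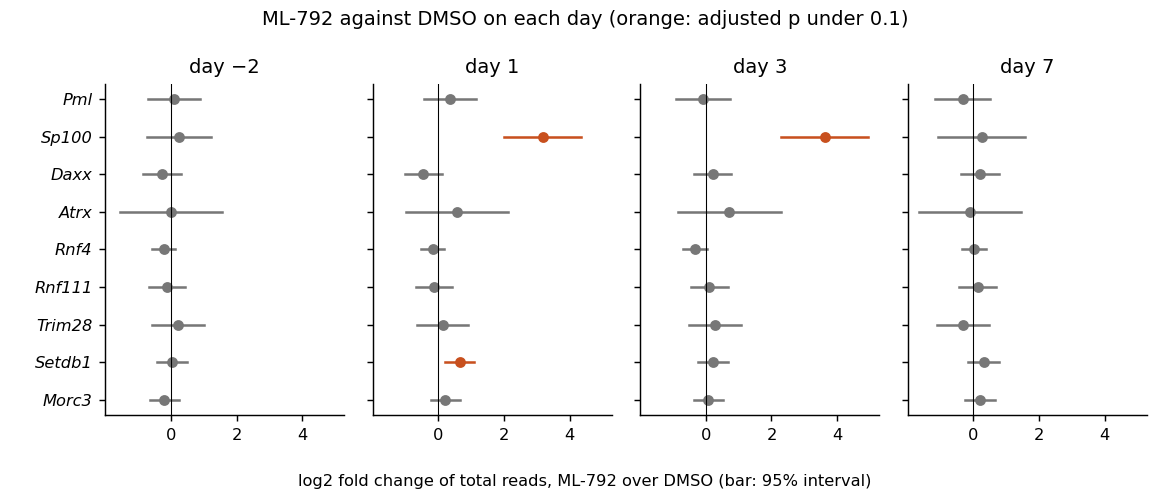
Log2 fold change of ML-792 against DMSO in total reads (horizontal axis) for each of the 9 genes (rows), with a panel for each day relative to induction. Points are edgeR estimates, bars are 95% intervals, and orange marks an adjusted p under 0.1. Orange points are Sp100 on day 1 (3.17) and day 3 (3.62) and Setdb1 on day 1 (0.65).

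MORC3 is an ATPase that resides in PML bodies through SUMO. The Morc3 3′UTR is 1161 bases at chr16:93874913-93876073 (plus strand). Its total reads ranged from 134 to 318, with DMSO means of 207 ± 64.7, 225 ± 23.8, 218 ± 22.9 and 145 ± 9.30 and ML-792 means of 181 ± 25.2, 262 ± 53.1, 231 ± 41.1 and 167 ± 27.4. No contrast of total reads was called.

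Genes that work with the members were counted beside the shares of all entries given above, which rose in the same way over days 1, 3 and 7 in DMSO (13.7, 30.5 and 32.6%). Of 27 other PML body constituents and partners, 26 were tested. In DMSO none was called on day 1, and 3 were higher and 2 lower on both day 3 and day 7. The kinase gene Hipk2 rose by a log2 fold change of 3.71 on day 3 (from a mean of 1088 to 14272) and of 3.61 on day 7, and the transcriptional cofactor gene Trim24 by 1.14 and 1.71. The acetyltransferase gene Crebbp (-0.87) and the ubiquitin and SUMO ligase gene Topors (-0.83) fell on day 3, and the telomere protein gene Terf1 (-1.61) and Topors (-1.33) on day 7. With ML-792 against DMSO, Sumo3, which encodes a SUMO paralogue, was higher by 1.10 on day 1 (adjusted p = 0.0176) and by 1.25 on day 3 (adjusted p = 0.0039). Trim24 was lower on day 1 (-0.49, adjusted p = 0.0463) and day 3 (-0.65), and so was the DNA repair gene Mre11a on day 3 (-0.60). On day 7, H3f3a, a gene for the histone variant deposited by DAXX and ATRX, was higher by 0.91 (adjusted p = 0.0155). The interaction was called for 0 of 26.

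In the SUMO-targeted ubiquitin pathway, 19 of 20 genes were tested. The repressor genes Skil (-1.80) and Ski (-1.09) were the 2 that fell on day 1 in DMSO, with none higher. On day 3, 3 were higher and 5 lower, and on day 7, 3 and 6. The DNA repair ligase gene Brca1 rose by 1.22 on day 3 and 1.37 on day 7, whereas Ski fell by 2.27 and 2.42, the TGF-beta inhibitor gene Smad7 by 2.33 on day 3 and the deubiquitinase gene Usp11 by 2.67 on day 7. Against DMSO, ML-792 showed 1 higher (Skil, 0.80) and 1 lower (Ube2n, -0.53) on day 1, 2 higher (Smad7, 1.11, and Ski, 0.64) and 2 lower (Brca1, -0.82, and Rnf166, -0.45) on day 3, and 2 lower on day 7 (Axin1, -0.54, and Rnf166, -0.50).

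Of 32 genes of the silencing machinery around TRIM28 and SETDB1, 30 were in the table and 27 were tested. In DMSO, 1 was higher (the histone methyltransferase gene Suv39h2, 1.28) and 1 lower (the KRAB zinc finger gene Zfp57, -2.67) on day 1, 2 higher and 2 lower on day 3, and 2 higher and 5 lower on day 7, when Uhrf1, which guides maintenance of DNA methylation, stood at -2.43. Atf7ip, the partner that stabilises SETDB1, was the highest call of ML-792 against DMSO on day 1, from 775 to 2351 normalized reads (1.60, adjusted p = 5.29e-08), with 1.09 on day 3 and 1.02 on day 7. Mbd1, a methyl-DNA-binding protein gene, was also higher on day 3 (1.23) and day 7 (1.13), as was the retroviral repressor gene Zfp809 on day 3 (1.30). Trim24 (-0.49) was lower on day 1, and Uhrf1 (-0.75) and Trim24 (-0.65) were lower on day 3. The interaction was called for 2 of 27.

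Labelled reads of the whole library fell after day -2, which sets the frame for the members. In DMSO the labelled share was 3.17 ± 0.485% of reads on day -2, 1.27 ± 0.0798% on day 1, 1.03 ± 0.115% on day 3 and 1.03 ± 0.0869% on day 7, and with ML-792 it was 2.83, 1.06, 0.958 and 0.837%. No library without 4-thiouridine was analysed here, so the share that sequencing errors contribute is not known. Labelled counts were scaled by the total reads of each library. On that scale 1 of 8 members fell by day 1 in DMSO (Rnf4, -1.82, adjusted p = 0.00826), where 19.1% of entries were called lower and 19.7% in either direction. On day 3, 3 of 8 fell (Pml, Daxx and Atrx), against 32.6% lower and 34.4% in either direction, and on day 7, 3 of 8 (Pml, Atrx and Rnf111), against 28.4% and 30.2%. None rose. The median log2 fold change of the 8 was -1.63, -2.12 and -1.63 on days 1, 3 and 7, beside -1.27, -1.70 and -1.54 over all entries. With ML-792, 1, 4 and 5 of the 8 fell on days 1, 3 and 7, where 26.3, 33.2 and 37.7% of entries were called lower and 26.9, 35.1 and 39.4% in either direction. When each library's labelled counts were instead scaled to its own labelled depth, none of the 5 members called lower in DMSO or the 6 called lower with ML-792 was called lower, and Setdb1 was called higher on day 1 in DMSO (3.51, adjusted p = 0.00045).

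Labelled Pml reads over the 3 libraries of a group went from 54 on day -2 in DMSO to 12, 3 and 1 on days 1, 3 and 7. Day 3 was 13.7-fold lower (95% counting interval 4.45 to 68.6, adjusted p = 0.00901) and day 7 was 42.4-fold lower (interval 7.29 to 1705, adjusted p = 0.00243), each on few reads. The intervals in this paragraph pool the reads of 3 libraries and leave out the spread between libraries, so they are too narrow. The adjusted p-values beside them come from the edgeR fit. With ML-792 they went from 54 to 16, 3 and 2, which was 11.3-fold lower on day 3 (interval 3.67 to 56.5, adjusted p = 0.00584) and 15.7-fold lower on day 7 (interval 4.15 to 133, adjusted p = 0.00336). Atrx fell by 2.67 on day 3 (adjusted p = 0.000873) and by 2.04 on day 7 (adjusted p = 0.00684) in DMSO, and by 2.32, 2.21 and 2.21 on days 1, 3 and 7 with ML-792. Daxx fell by 2.10 on day 3 in DMSO (adjusted p = 0.00308). Rnf4 fell by 1.88 on day 7 with ML-792 (adjusted p = 0.00518), and Trim28 by 1.32 on day 3 (adjusted p = 0.00722) and by 1.57 on day 7 (adjusted p = 0.00179). Labelled Rnf111 went from 59 to 1 read by day 7 in DMSO, 46.3-fold lower (interval 7.99 to 1860, adjusted p = 0.00229), and labelled Morc3 from 47 to 1 read by day 3 with ML-792, 29.5-fold lower (interval 5.05 to 1191, adjusted p = 0.00236). The log2 fold changes of Atrx, Daxx, Rnf4 and Trim28 rest on more reads, with 17 (Rnf4 with ML-792 on day 7) to 257 labelled reads in the groups compared. Without replicate A or C, only Atrx of the 5 members called in DMSO was still called, and without replicate A only Setdb1 of the 6 called with ML-792 was.

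Setdb1 labelled reads were not called lower in DMSO on any day. They went, over 3 libraries, from 17 on day -2 to 78, 21 and 11 in DMSO, a change of 2.22 on day 1 (adjusted p = 0.0275) that did not pass the threshold, and with ML-792 they went from 38 to 33, 16 and 0. With a floor of 3 reads over the group in place of 0, the last of these is 7.04-fold below day -2 (adjusted p = 0.000693). This ratio leaves out the counting error of the 38 reads. As a share of its total reads, labelled Setdb1 averaged 1.76, 2.19, 1.79 and 1.90% in DMSO and 2.97, 0.664, 1.21 and 0% with ML-792 on days -2, 1, 3 and 7. For Sp100, DMSO had 13 labelled reads on day -2 and 0 on each later day, and ML-792 had 9, 6, 2 and 1. With the same floor, the later DMSO days were 4.25-fold, 3.31-fold and 3.4-fold lower, again without the counting error of the 13 reads. The 9 later DMSO libraries held 50 total Sp100 reads, and 0 labelled of 50 allows a share of up to 6%, which is above the 5.14% of day -2, so a change of the share itself was not detectable at this depth. Between ML-792 and DMSO, 0 of 8 members differed in labelled reads on any day, where 0, 0.888, 0.916 and 0.869% of entries were called on days -2, 1, 3 and 7. At an unadjusted p under 0.05 there were 0, 0, 1 and 1 of the 8, beside 0.708, 11.2, 9.99 and 11.3% of all entries. The interaction was called for none of the 8 and for 0.246% of entries.

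The labelled share of each member in DMSO was compared between the 3 libraries of day -2 and the 9 later ones by a two-sided exact permutation test, whose smallest possible p here is 0.00455 (220 splits). The p-values of the 9 tests are unadjusted. The mean share fell from 1.95 to 0.434% for Pml (p = 0.00455 by the exact test), from 4.93 to 1.66% for Rnf4 (p = 0.00455 by the exact test) and from 1.52 to 1.01% for Trim28 (p = 0.00455 by the exact test). It also fell for Rnf111 from 6.84 to 1.27% (exact p = 0.00909), for Atrx from 1.32 to 0.506% (exact p = 0.0136), for Morc3 from 7.07 to 2.04% (exact p = 0.0136) and for Daxx from 2.88 to 1.24% (exact p = 0.0227). Sp100 went from 5.14 to 0%, and no p is given because the 9 later libraries hold too few Sp100 reads for the test, as set out above. Setdb1 was at 1.76 and 1.96% (exact p = 0.814), while the share of the whole library went from 3.17 to 1.11% (exact p = 0.00455).

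**Figure D5:**
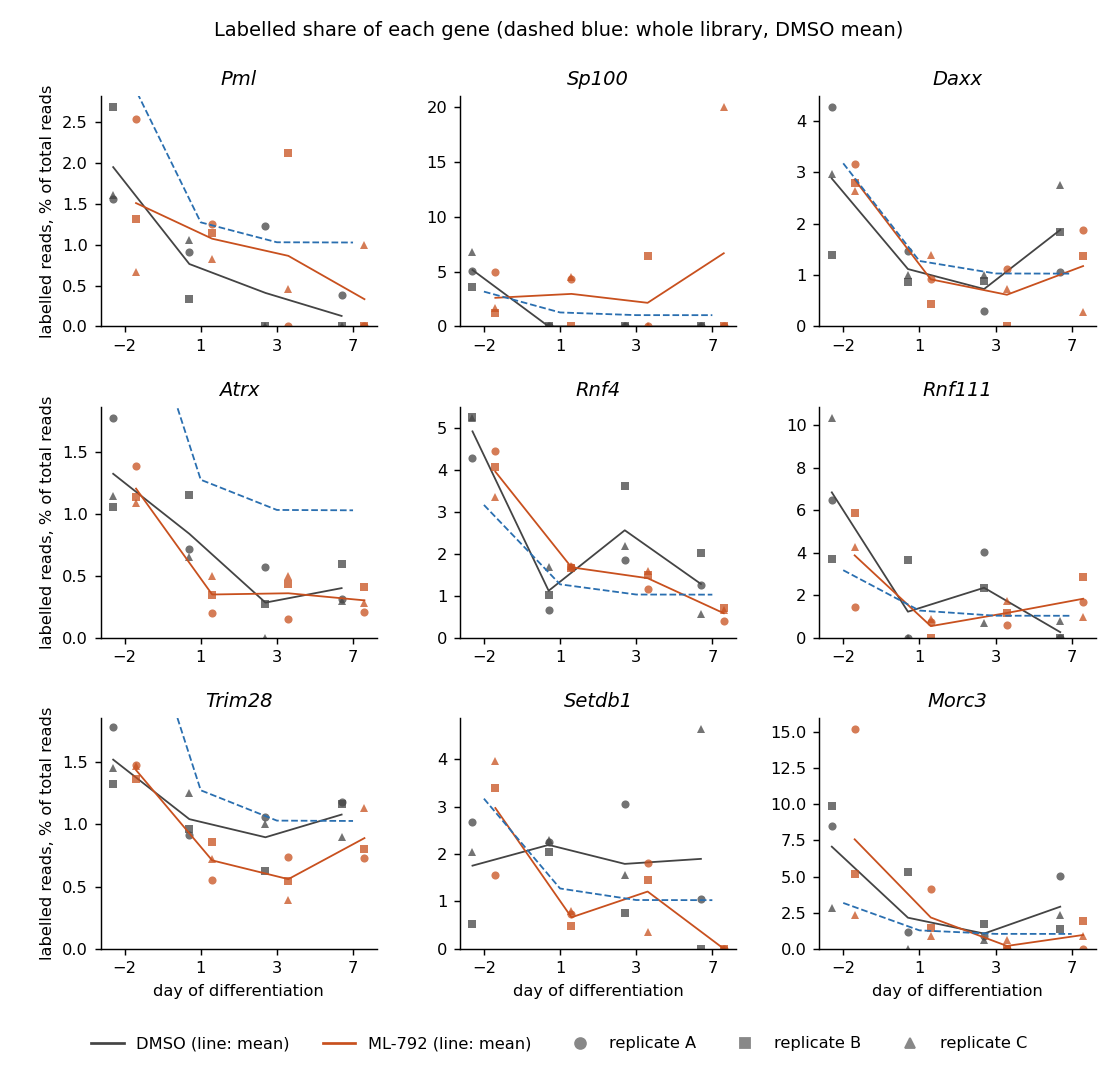
Labelled reads as a percent of total reads (vertical axis) for each of the 9 genes by day relative to induction (horizontal axis), DMSO in grey and ML-792 in orange, with symbols for replicates A, B and C. The dashed blue line is the DMSO mean of the whole library, which runs off the top of some panels on day -2 (3.17%). Most genes sit highest on day -2, whereas Setdb1 averages 1.76% on day -2 and 1.96% over the later days in DMSO.

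For each member the gene with the most similar course was found by Pearson's r of log2 normalized total reads over the 24 libraries, among about 10350 genes with a mean of at least 50. These are descriptions, since the libraries share days and treatments. Pml was most like Rgs12 (r = 0.97), Setdb1 like Emb (0.97), Rnf4 like Cox16 (0.95), Atrx like Zfp758 (0.94), Trim28 like the SUMO protease gene Senp1 (0.93), Daxx like Cog2 (0.91), Sp100 like Nme4 (0.88), Morc3 like Rbm27 (0.87) and Rnf111 like Tmed10 (0.83). Among the members themselves the highest values were for Setdb1 with Morc3 (0.69) and Pml with Sp100 (0.67), and the lowest for Pml with Rnf4 (-0.85).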

How the data were processed

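RNA of 24 SLAMseq libraries (3 replicates in 8 conditions, separate biological replicates by the methods) was sequenced as single reads of 50 bases from oligo(dT)-primed 3′ ends. Per the labels, bcl2fastq 2.17.1.14 made the reads and mm10 was the build, and per the methods SlamDunk aligned them and counted reads in RefSeq 3′UTRs, a read with at least 1 T>C conversion being labelled. The authors deposited 2 tables of raw counts, of total and of labelled reads, for 91830 3′UTR entries. Entries overlap, so that a read can be counted more than once. The tables hold 6 further library columns that belong to no sample analysed here and were not used.

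Columns were assigned to samples by title. Entries were tested with edgeR 4.0.16 (R 4.3.3, quasi-likelihood, TMM factors over the 24 libraries, filterByExpr at 10 reads per library and 15 in all), in fits of the 12 libraries of a treatment for the time courses and of all 24 for ML-792 against DMSO and the interaction. Labelled counts used the sizes and factors of the total counts. DESeq2 1.42.0, the tool of the methods, served as an alternative, and the other alternatives were no filter, 1 entry per gene, the longest entry of each member, other fits, a replicate block and leaving out each replicate. P-values measure the spread between these libraries, and the main fits do not pair them by replicate letter.

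The members, lists and tests were chosen with earlier results of these data known. Named were all 9 members, their other entries where these do not overlap or differ in call, the most similar gene of each, and the 2 highest and 2 lowest called genes of each list, except 1 gene that is counted in its list but not reported here by name. Lists missing symbols (Ufd1, Tasor, Resf1 and Mx2 are not in the table) were counted without them. Counts were simulated for 26563 entries, of which 100 changed 2-fold, 100 changed 4-fold and the rest did not change. On day 1 of the DMSO time course 10% of 2-fold and 66% of 4-fold changes were recovered, and 34% and 78% for ML-792 against DMSO on day 1. For labelled counts over 10589 entries the shares were 1% and 19%, and 2% and 34%. Unchanged entries called numbered 1 and 14 for total counts, and 0 and 2 for labelled counts. Far more entries were called in the same contrasts of total reads (3642 and 1741). With few changed entries the adjusted threshold is stricter, so these shares are not the power of the tests above. Intervals and floors cover counting error or the spread between libraries, and reads carry no molecular identifiers.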

Additional observations from a re-analysis of the deposited data

Results flagged for a closer look

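The effect of ML-792 on Sp100 total reads differed between days by a test of the difference itself (edgeR interaction of day and treatment, adjusted p = 0.00629). At the last 3′UTR, ML-792 exceeded DMSO in 3 of 3 libraries on days 1 and 3, by 3.17 and 3.62 on the log2 scale, and the treatments overlapped on day -2 (0.25) and day 7 (0.26). Summed over the 3 Sp100 ends, the day 7 libraries did not overlap (8.34 to 11.4 in DMSO, 12.3 to 23.2 with ML-792). No other member passed this test without a replicate block, and with one Trim28 (adjusted p = 0.0618) and Pml (adjusted p = 0.098) passed it too. Over all 26563 entries, 5568 passed with the block and 2567 without it. The Sp100 interaction was not called without replicate C, nor at the separate 114-base Sp100 end. In DMSO the 3 libraries together held 21 total Sp100 reads on day 1 and 9 on day 3.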

How the results depend on the processing

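Counts of members called at least once are given here, in the order DMSO time course total reads (4), ML-792 time course total reads (4), ML-792 against DMSO total reads (2), interaction total reads (1), DMSO labelled (5), ML-792 labelled (6) and labelled share (8 at an unadjusted p under 0.05, a count that includes Sp100, for which the test has too few reads). How many of all genes would pass the labelled share test was not computed, and the share of the whole library fell too (exact permutation test, p = 0.00455). With the longest 3′UTR entry of each member the first 4 of these counts were 2, 2, 1 and 0 members, since the longest entries of Pml and Sp100 were not tested. ML-792 against DMSO gave 1 at an adjusted p under 0.05 and 1 in fits of the 6 libraries of a day. Labelled counts scaled by labelled reads gave 1 member in DMSO and 0 with ML-792. That scaling turned 2 called changes, those of Trim28 with ML-792, to 0.11 on day 3 and 0.018 on day 7, both not called. Leaving out each replicate in turn gave 3 to 4, 2 to 6, 1 to 2, 0 to 1, 1 to 3, 1 to 4 and 4 to 6 members in the order above. In the fits of 2 libraries a group, fewer samples alone lower the number of calls, and the p of the labelled share has a higher minimum. ML-792 against DMSO and the interaction in labelled reads gave 0 members under every alternative run. The cause was not tested for the others. With Atrx taken by its terminal 3′UTR, an alternative chosen after seeing the data, 4 of its 5 labelled calls were lost, and the DMSO call of day 3 was -2.59 (adjusted p = 0.00718).

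Replicate letters were checked as pairs. Of 84 same-letter pairs of libraries, 68 had deviations from their group means that correlated above 0.1 in total reads (mean 0.191, lowest -0.173). The mean for different letters was -0.0939. In labelled reads 22 pairs did (mean 0.0708, against -0.0353), and 22 of 24 libraries correlated best with their own letter. Deviations within a group of 3 cancel out, so the means for different letters largely follow from those for the same letter. They are no separate evidence. Libraries of a letter thus shared part of their variation, more so in total reads. The main tests have no replicate block and leave this out, so calls with the block are given here. With a replicate block the interaction in total reads was called for 3 members (Sp100, Trim28 and Pml), ML-792 against DMSO for 3, each time course of total reads for 6, and labelled reads for 5 in DMSO and 7 with ML-792. Over all entries the block moved ML-792 against DMSO from 1741 to 3594 on day 1, from 3415 to 5464 on day 3 and from 2550 to 4841 on day 7, and the interaction from 2567 to 5568. It moved day 1 against day -2 from 3642 to 5628 in DMSO and from 5305 to 9758 with ML-792. DESeq2 called 3551 where edgeR called 2330 for DMSO day 7 against day 3, 4455 against 2890 with ML-792, and 233, 181 and 206 against 94, 97 and 92 for ML-792 against DMSO in labelled reads on days 1, 3 and 7. Depth limits the labelled values, as libraries held 115709 to 820046 labelled reads.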
